A study of Mus musculus with 16 samples.

Results

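The genes described here encode the proteins of the cytosolic ribosome, found in the expression table by their symbols: Rpl or Rps followed by a number (with an optional a, l, x or l1), and Rplp0, Rplp1, Rplp2 and Rpsa, with the Rps6k kinases and pseudogenes left out. They were 84 of 24238 genes, and 103 of 33702 RefSeq transcript rows. By name, 49 belonged to the large (60S) subunit, 3 to its stalk and 32 to the small (40S) subunit; a few paralogs that match by name only, such as Rpl7l1, are among them. So is Rps4l, which has a non-coding row only. Of the 84, 80 had a mean of at least 1 FPKM over the 16 libraries and 4 (Rpl3l, Rpl10l, Rpl32l and Rpl39l) did not. FPKM are fragments scaled to transcript length and to the mapped fragments of a library.

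RNA was taken from embryoid bodies, which are aggregates of differentiating cells grown from the R1 mouse embryonic stem cell line without Lif for 4 days. Day 0 is the day on which retinoic acid (2 µM) was added, and day 4 is 4 days later, so that both days share the cell line and the aggregation, and the days differ in age as well as in retinoic acid. The procedure was done in 2 repeats, which gave 4 RNA samples, and each RNA sample was divided into 4 vials that received different in vitro transcribed mouse spike-in mixes (mix 1, 2 or 3; mix 4 had none of them) and 1 of 2 ERCC spike-in mixes. Because the 4 vials hold portions of 1 RNA, they are not replicates, and the unit of the tests was the RNA sample (n = 2 per day). The exceptions are 1 fit on the 16 libraries with the RNA sample as a random effect, and fits that leave out an RNA sample. The latter have a single RNA sample on 1 day. Everything comes from 1 cell line. An FPKM is relative to the RNA in a library, so that fewer cells of a type and less RNA per cell cannot be told apart.

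Each ribosome holds one copy of nearly every ribosomal protein, and the genes for them lie scattered over the genome. Their mRNAs are among the most abundant in a growing cell and typically begin with a C followed by a run of pyrimidines, the 5′ terminal oligopyrimidine (TOP) motif, through which growth signals that pass through mTOR control their translation together. The proteins are assembled with ribosomal RNA in the nucleolus by a large group of biogenesis factors. Pluripotent stem cells are known for high ribosome biogenesis and modest translation, and both change when the cells differentiate.

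At the level of transcripts, both rows that passed the test belonged to 1 gene, Rps24. It encodes a protein of the 40S subunit that takes part in processing of the ribosomal RNA precursor and is mutated in some patients with Diamond-Blackfan anaemia. The gene lies on the plus strand at chr14:24490678-24496960 (GRCm38). Its transcripts differ in the use of 2 very short exons near the stop codon and in their 3′ ends. The short exons are an 18-base exon at chr14:24494052-24494069 and a 20-base exon at chr14:24495430-24495449 (GENCODE M21 models of the RefSeq rows). The model of NM_207634 is 1613 bases long, 1185 of them in its last exon, and those of NM_011297 and NM_207635 are 519 and 525 bases long with a last exon of 71. The last 30 bases of the fourth exon and the next 24 bases of each transcript are printed because they hold the whole difference between the encoded proteins; capitals mark bases of the short exons.
Rps24 NM_207634: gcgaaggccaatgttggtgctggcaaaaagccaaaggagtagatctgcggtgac
Rps24 NM_011297: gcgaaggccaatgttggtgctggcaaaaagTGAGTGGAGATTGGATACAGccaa
Rps24 NM_207635: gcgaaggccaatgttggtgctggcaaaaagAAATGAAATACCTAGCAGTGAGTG
NM_207634 skips both exons and reads on for 9 coding bases before a stop codon at position 40 of the printed sequence (133 codons in all). NM_011297 holds the 20-base exon, whose first codon is a stop at position 31 (130 codons). NM_207635 holds both exons and adds 1 codon before a stop at position 34 (131 codons).

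NM_207634, which lacks both short exons, fell from day 0 to day 4. Its FPKM were 600, 592, 589 and 600 in the vials of day 0 replicate 1 and 632, 675, 469 and 535 in those of day 0 replicate 2. At day 4 they were 46.1, 55.9, 54.7 and 52.7 in replicate 1 and 48.8, 44.1, 41.3 and 50.8 in replicate 2. All 8 day 0 libraries lay above all 8 day 4 libraries, without overlap. The log2 difference was -3.57 (SE 0.15), an 11.9-fold lower level at day 4 (limma on transcript rows, adjusted p = 0.0217, n = 2 RNA samples per day). Its share of the summed FPKM of the 3 rows was 26.2% to 35.1% at day 0 and 2.34% to 3.05% at day 4.

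NM_207635, with both short exons, rose. It had 30.5, 30.9, 35.2 and 31.3 FPKM in day 0 replicate 1 and 30.5, 30.7, 52.2 and 44.7 in day 0 replicate 2. The day 4 values were 126, 123, 125 and 118 in replicate 1 and 125, 117, 138 and 117 in replicate 2, again without overlap between the days. The log2 difference was 1.82 (SE 0.16, limma on transcript rows, adjusted p = 0.0217), a 3.52-fold higher level.

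NM_011297, with the 20-base exon alone, was the main transcript at both days. It ranged over 1100 to 1300 FPKM at day 0 and 1580 to 1710 at day 4, which is a log2 difference of 0.48 (SE 0.19, limma, adjusted p = 0.179) that did not pass the test with all vials. Its share of the gene rose from a median of 63.9% at day 0 to 90.5% at day 4 as the share of NM_207634 fell. The 3 rows summed to nearly the same level at both days, 1720 to 1920 FPKM at day 0 and 1760 to 1880 at day 4, with a log2 difference of 0.0131 (SE 0.19, limma, adjusted p = 0.962).

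These 2 rows were the only ones of the 103 ribosomal protein rows called by limma at an adjusted p of at most 0.05, against 13.9% of all 28213 rows tested. Over the 10 other settings tried for the rows, the difference of NM_207634 stayed between -3.67 and -3.45 and was called in 6, and that of NM_207635 stayed between 1.65 and 1.98 and was called in 5. The calls of both rows were lost without day 0 replicate 1, without day 4 replicate 1 and without day 4 replicate 2. Those fits have a single RNA sample on 1 day, so a lost call there says little about these rows. In these models 96.1% of the bases of NM_011297 and 92.8% of those of NM_207635 lie also in NM_207634, but only 30.9% and 30.2% of those of NM_207634 lie in the other models. Values of the 3 rows depend on how RSEM, the authors' transcript quantifier, divided reads of the shared bases, and the rows differ in their 3′ ends as well as in the short exons, so that the part of each cannot be told apart.

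**Figure D1:**
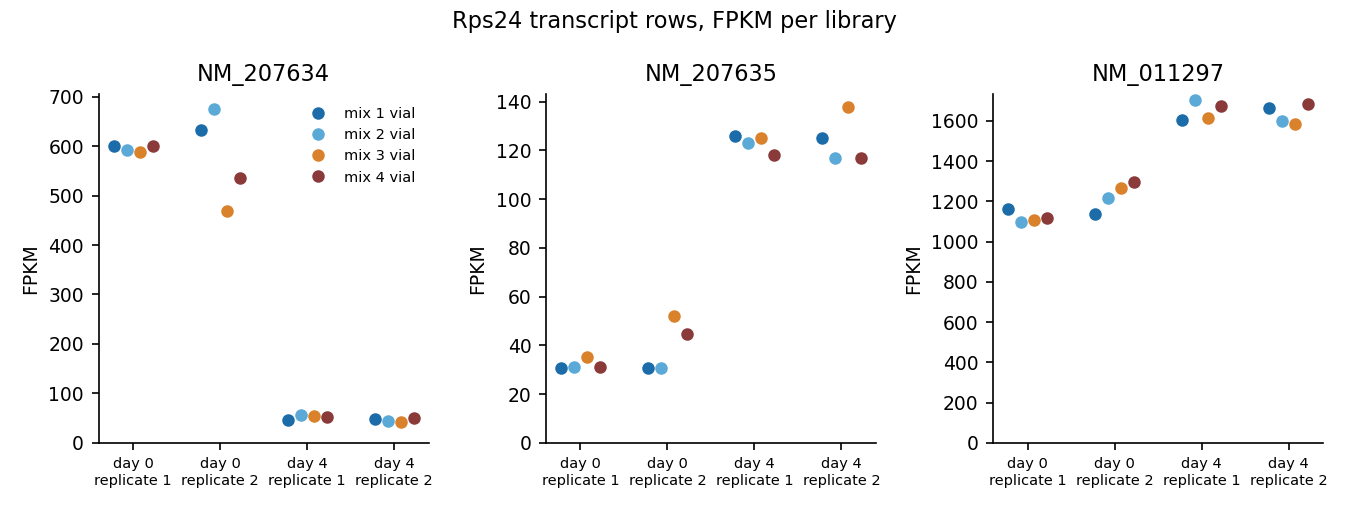
FPKM (linear axis from 0) of the 3 Rps24 transcript rows in 16 libraries, as 4 vials (colours) of each of 4 RNA samples. NM_207634 sits at 469 or more in every day 0 library and at 55.9 or less in every day 4 library, NM_207635 sits at 52.2 or less and at 117 or more, and NM_011297 is the highest of the 3 rows in all libraries.

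For the family as a whole, a pair of libraries must be named before the days are compared. In day 0 replicate 2, the mix 3 and mix 4 vials stood apart from the mix 1 and mix 2 vials of the same RNA. The summed FPKM of the 84 genes was 121232, 113960, 114939 and 112966 in the vials of day 0 replicate 1. In day 0 replicate 2 it was 103003 and 89345 in the mix 1 and mix 2 vials but 48851 and 53759 in the mix 3 and mix 4 vials. The mix 1 and mix 2 vials too lay below every vial of day 0 replicate 1, with mix 2 the lower. Settings that leave out only the mix 3 and mix 4 vials still hold them. At day 4 it was 59211, 67250, 67609 and 64928 in replicate 1 and 56121, 55210, 55969 and 62595 in replicate 2. The mix 3 and mix 4 vials of day 0 replicate 2 thus lay below every day 4 library, while the other 6 day 0 libraries lay above all of them. As a share of the FPKM of all RefSeq rows, the genes took 18.8% to 20.1% in those 6 libraries, 12% and 13.1% in the 2 vials, and 13.3% to 15.8% at day 4.

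**Figure D2:**
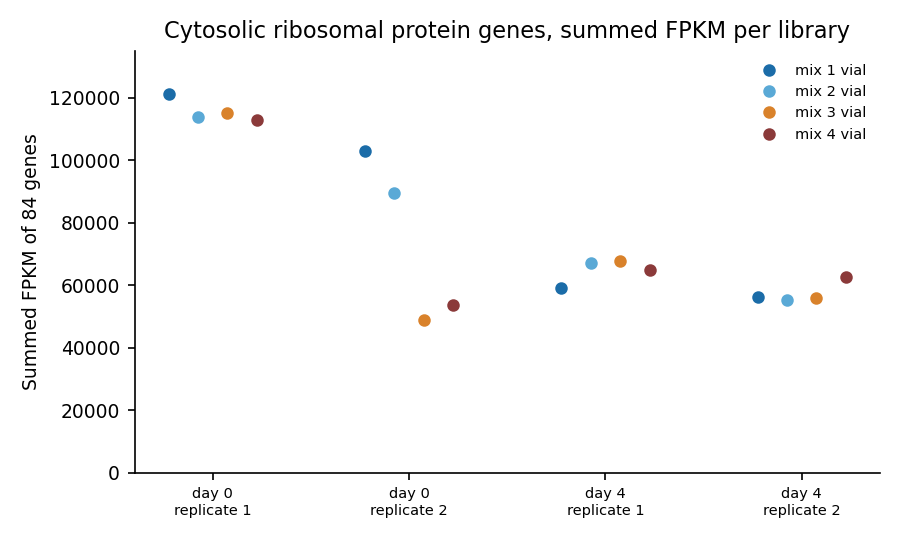
Summed FPKM of the 84 genes (linear axis from 0) in each of 16 libraries, by RNA sample and by vial (colours). The mix 3 and mix 4 vials of day 0 replicate 2, at 48851 and 53759, lie below the 8 day 4 libraries, and the other day 0 libraries lie at 89345 or more.

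The ratio of the mean sums, day 0 over day 4, was 1.55 over all vials. Without the mix 3 and mix 4 vials of day 0 replicate 2 it was 1.73, and within that RNA sample the mix 1 and mix 2 vials stood 1.87-fold over the mix 3 and mix 4 vials. Day 0 replicate 1 stood 1.89-fold over day 4, so that vials of 1 RNA differed by nearly the same ratio as that sample and day 4.

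Gene by gene, 69 of the 84 genes were lower at day 4 and 15 were higher, with a median log2 difference of -0.71 against -0.02 over all 20553 genes tested. With all vials, limma called 1 of the 84 (Rpl26, lower), whereas 24.8% of all genes were called and 9.92% were called lower. At an unadjusted p under 0.05, 6 of the 84 passed, against 41.4% of all genes. Among genes of at least 1 FPKM, 4 of the 80 passed, against 44.8% of all 11605. With each library scaled to the same total FPKM, 58 of 84 were lower with a median of -0.44 and 1 was called, against 5473 of all 20553 genes. With each scaled to the same median, 65 were lower with a median of -0.57 and 2 were called, against 5103 of all genes. The direction of the median held under both, at a smaller size.

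Without the mix 3 and mix 4 vials of day 0 replicate 2, limma called 55 of the 84 genes lower and 3 (Rpl22l1, Rpl39 and Rps27a) higher, with a median of -1.03. Over all genes 33.5% were then called lower and 27.0% higher. Among genes of at least 1 FPKM, 55 of 80 ribosomal protein genes were called lower and 3 higher. Of all 11605 such genes, 4863 were called lower and 3826 higher. With the repeat of the procedure as a block and all vials kept, 24 of the 84 were called lower and 0 higher, against 18.9% of all genes called lower. At an unadjusted p under 0.05 that block fit passed 49 of the 84 (58.3%) and 49.8% of all genes. Among genes of at least 1 FPKM the shares were nearly equal, 57.5% of the 80 and 57.0% of all 11605. In that group the block fit called 24 of the 80 and 2553 of the 11605 lower. With or without 2 vials of 1 RNA sample, the number of ribosomal protein genes called was thus 1 or 58. Without day 0 replicate 2 it was 40, where 45.8% of all genes were called. Without day 0 replicate 1 limma called 0 of the 84, with 5 at an unadjusted p under 0.05, where 21.6% of all genes were called. Without either day 4 replicate neither the 84 nor any other gene gave a call.

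In the 60S group, without the stalk, 38 of 49 genes were lower at day 4 with a median log2 difference of -0.62, and 1 was called. In the 40S group 28 of 32 were lower with a median of -0.91, and 0 were called by limma, with 2 at an unadjusted p under 0.05. Without the 2 vials, 31 of the 49 and 21 of the 32 were called lower, and the medians were -0.93 and -1.22. The difference between the subunits was not tested.

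**Figure D3:**
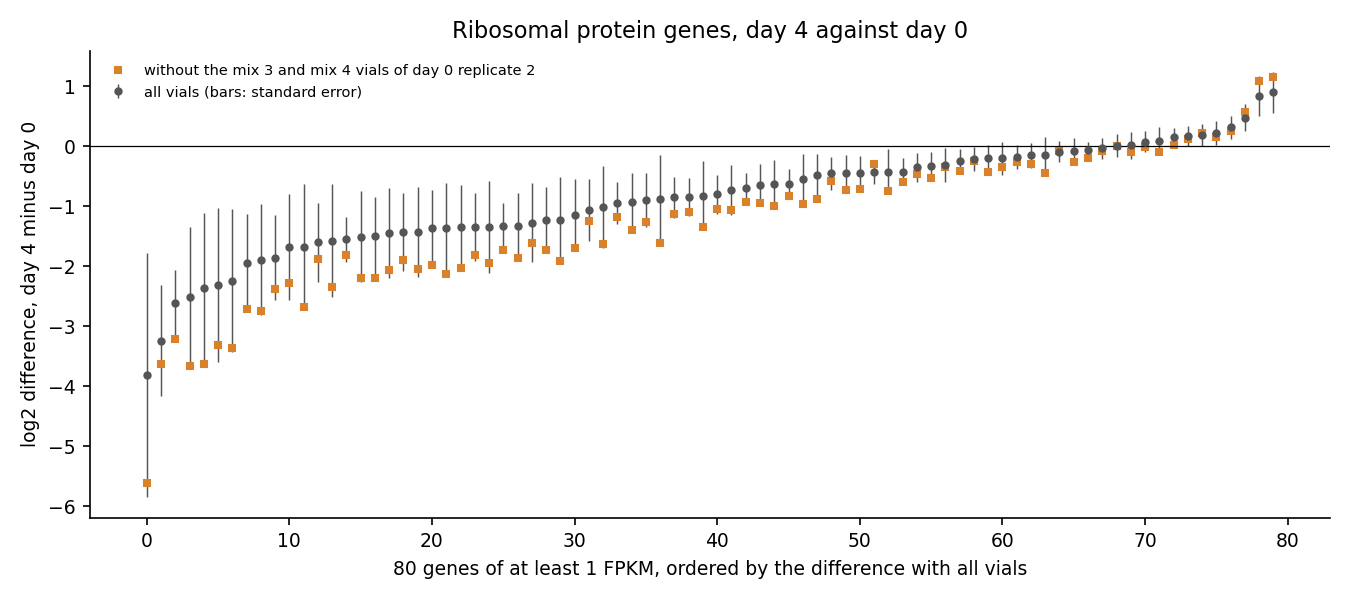
Log2 difference, day 4 minus day 0, of the 80 genes with a mean of at least 1 FPKM, ordered by the difference over all vials (circles, bars of 1 standard error from limma); squares show the same difference without the mix 3 and mix 4 vials of day 0 replicate 2. Most circles lie under 0 with long bars, and the squares lie further from 0 for the genes with long bars, such as Rpl36 (-3.81 and -5.62) and Rpl39 (0.90 and 1.16).

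Among the genes that were lower at day 4, Rpl26 encodes a 60S protein that also binds the p53 mRNA. Rpl26 had 609, 652, 646 and 617 FPKM in day 0 replicate 1 and 606, 621, 78.0 and 168 in day 0 replicate 2. It had 64.2, 86.5, 109 and 87.7 in day 4 replicate 1 and 33.3, 51.6, 58.6 and 72.5 in day 4 replicate 2. Of the mix 3 and mix 4 vials of day 0 replicate 2, the first stands within the day 4 range. The second, at 168, stands above the highest day 4 value of 109, and the other 6 day 0 libraries lie at 606 or more. The log2 difference was -2.62 (SE 0.55, limma, adjusted p = 0.046), a 6.13-fold lower level. With the repeat as a block the log2 difference was the same, with a smaller SE of 0.21 (limma, adjusted p = 0.00563). The call was lost in limma with a pseudocount of 1 (adjusted p = 0.0557), on transcript rows (adjusted p = 0.065) and in a fit without a trend (adjusted p = 0.0625). It was also lost with the mix 4 vials only (limma, adjusted p = 0.288) and with only the mix 3 and mix 4 vials for day 0 replicate 2 (limma, adjusted p = 0.332). Without day 0 replicate 1, day 4 replicate 1 or day 4 replicate 2 the log2 difference was -1.99, -2.97 and -2.26, and the call was lost. Those fits have a single RNA sample on 1 day, so a lost call there says little about this gene.

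Rps2, a 40S protein near the mRNA entry, was 1 of 2 genes whose 8 day 0 libraries all lay above the 8 day 4 libraries. It had 3225, 3067, 3077 and 2999 FPKM in day 0 replicate 1, and 2663, 2230, 1154 and 1255 in day 0 replicate 2. The day 4 values were 778, 875, 894 and 845 in replicate 1 and 690, 696, 708 and 809 in replicate 2. The log2 difference was -1.55 (SE 0.37), with an adjusted p of 0.0587 in limma, which did not pass the threshold; with the repeat as a block it was 0.0157. The other was Rps27l, a paralog of Rps27 and a p53 target, with 522 to 843 FPKM at day 0 and 417 to 482 at day 4. Its log2 difference was -0.43 (SE 0.19, limma, adjusted p = 0.187), and unlike most of the family its highest values, 843 and 810, were in the mix 3 and mix 4 vials of day 0 replicate 2. In all, 2 of the 80 genes of at least 1 FPKM lay lower without overlap and 2 higher, where 19.4% and 26.0% of all 11605 such genes did.

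Rpl36, Rpl8, Rps15 and Rpl18 were among the 8 genes with the lowest differences and also had wide spreads between vials. Rpl36, a 60S protein, had 1224, 861, 823 and 797 FPKM in day 0 replicate 1, and 440, 170, 1.16 and 2.41 in the mix 1 to mix 4 vials of day 0 replicate 2. At day 4 it had 6.35, 18, 26.3 and 15.9 in replicate 1 and 8.95, 4.94, 5.34 and 8.88 in replicate 2. The RNA of day 0 replicate 2 gave the lowest and the next lowest of all 16 values, and also 440 and 170. The log2 difference was -3.81 (SE 2.03, limma, adjusted p = 0.241), and the SD over the vials of day 0 replicate 2 was 4.25 on the log2 scale, against 0.29 in day 0 replicate 1.

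Rpl8, which lies at the peptidyl transferase side of the 60S subunit, had 1933 to 2211 FPKM in day 0 replicate 1. It had 1539, 945, 38.4 and 65.2 in day 0 replicate 2, and 74.1 to 215 at day 4. Rps15, a 40S protein, had 974, 562, 16.1 and 32.3 in day 0 replicate 2, where the other RNA sample of the day had 1175 to 1359. Rpl18 had 1121, 664, 26.5 and 54.5 there and 1495 to 1696 in day 0 replicate 1. In each of these genes the 2 vials lay below all day 4 libraries, and the adjusted p in limma was 0.195, 0.239 and 0.239. Without the 2 vials the log2 differences of Rpl8, Rps15 and Rpl18 were -3.67, -3.63 and -3.37, with adjusted p of 0.00471, 0.00528 and 0.00631 in limma.

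The stalk proteins Rplp0, Rplp1 and Rplp2 form the lateral protrusion of the 60S subunit that recruits translation factors. Rplp0 had 2422, 2122, 2153 and 2048 FPKM in day 0 replicate 1 and 1554, 992, 277 and 315 in day 0 replicate 2. It had 313, 387, 410 and 345 in day 4 replicate 1 and 254, 254, 278 and 327 in day 4 replicate 2. Its log2 difference was -1.86 (SE 0.71, limma, adjusted p = 0.143), and those of Rplp1 and Rplp2 were -1.60 (SE 0.66, adjusted p = 0.164) and -1.68 (SE 0.88, adjusted p = 0.235). None of the 3 was called with all vials. All 3 were called lower without the mix 3 and mix 4 vials of day 0 replicate 2, at -2.38, -1.87 and -2.28. Rpsa, the laminin-receptor protein of the 40S subunit, had 1329 to 1483 FPKM in day 0 replicate 1 and 234 to 393 at day 4, with a log2 difference of -1.36 (SE 0.64, limma, adjusted p = 0.2).

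Rps4x and Rps27a were the genes whose 8 day 4 libraries all lay above the 8 day 0 libraries. Rps27a encodes a fusion of ubiquitin with a 40S protein, and had 1966, 1909, 1925 and 1978 FPKM in day 0 replicate 1 and 2033, 2203, 2619 and 2774 in day 0 replicate 2. At day 4 it had 2960, 2985, 3028 and 3195 in replicate 1 and 2943, 2880, 3019 and 3120 in replicate 2. Its log2 difference was 0.48 (SE 0.23, limma, adjusted p = 0.2), a 1.40-fold higher level that was not called with all vials. Rps4x, the X-linked S4 protein, had 1716 to 2254 at day 0 and 2291 to 2574 at day 4, with a log2 difference of 0.32 (SE 0.19, limma, adjusted p = 0.295).

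Rpl39 and Rpl22l1 had the highest differences upwards among the genes of at least 1 FPKM. Rpl39, a short 60S protein at the peptide exit tunnel, had 1434, 1370, 1381 and 1451 FPKM in day 0 replicate 1 and 1523, 1763, 3446 and 3312 in day 0 replicate 2. At day 4 it had 3534, 3083, 3090 and 3370 in replicate 1 and 3521, 3465, 3682 and 3502 in replicate 2. The mix 3 and mix 4 vials of day 0 replicate 2 stood within the day 4 range, far above the other 6. The log2 difference was 0.90 (SE 0.34, limma, adjusted p = 0.139). Rpl22l1, the paralog of Rpl22, had 396 to 423 FPKM in day 0 replicate 1, then 458, 545, 1010 and 960 in day 0 replicate 2, and 866 to 1064 at day 4, with a log2 difference of 0.84 (SE 0.33, limma, adjusted p = 0.147). Rpl22 itself had 136 to 200 at day 0 and 189 to 212 at day 4, with a log2 difference of 0.15 (SE 0.15, limma, adjusted p = 0.48).

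**Figure D4:**
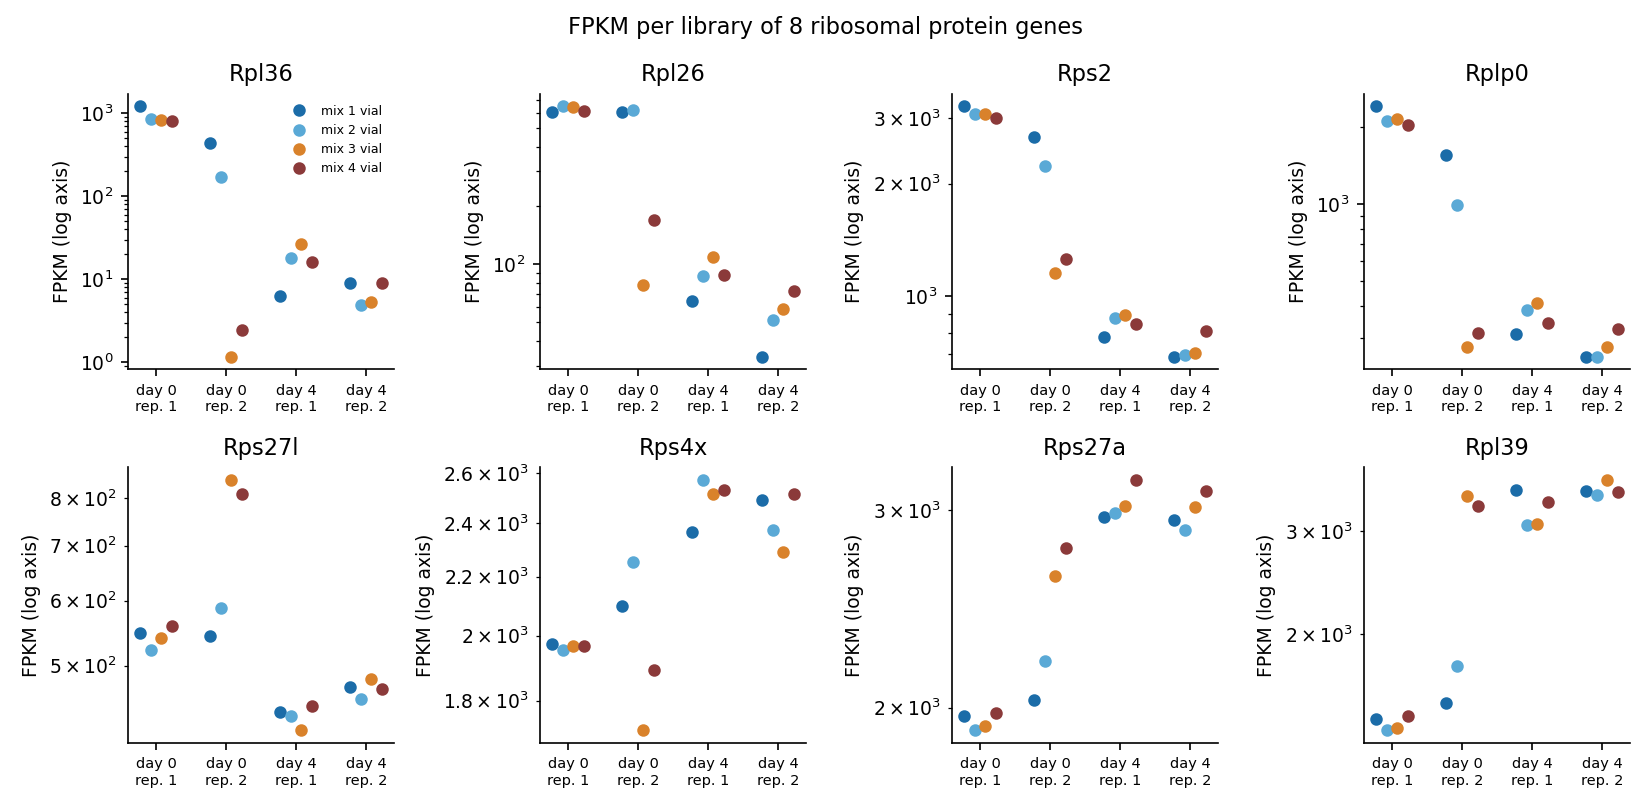
FPKM (log axes, each with its own range) of 8 ribosomal protein genes in 16 libraries, by RNA sample and by vial (colours). In Rpl36, Rpl26, Rplp0 and Rpl39 the mix 3 and mix 4 vials of day 0 replicate 2 sit with or near the day 4 libraries, while in Rps2, Rps4x and Rps27a the days do not overlap, and in Rps27l the 2 vials are the highest of all.

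Other paralog pairs and landmark genes fell between these. Rpl3, at the peptidyl transferase centre, had a log2 difference of -0.63 (SE 0.40, limma, adjusted p = 0.31), and its muscle-type paralog Rpl3l was at 0.124 FPKM or less in every library. Rpl10 was at 1114 to 1920 FPKM with -0.35 (SE 0.24, adjusted p = 0.343), and its testis-type copy Rpl10l at 0.304 FPKM or less. Rpl39l, the testis-type copy of Rpl39, was at 0 to 0.305 FPKM at day 0 and 0.2 to 0.921 at day 4. Rpl7 had 0.23 (SE 0.20, adjusted p = 0.442), and Rpl7l1, a related nucleolar protein, -0.62 (SE 0.24, adjusted p = 0.147). Rpl5 and Rpl11, which with 5S RNA form the particle that restrains Mdm2, had 0.19 (SE 0.19, adjusted p = 0.472) and -0.42 (SE 0.37, adjusted p = 0.438). Rps19, the gene most often mutated in Diamond-Blackfan anaemia, had -1.22 (SE 0.71, adjusted p = 0.276), though its difference was 0.00397 after a correction for GC content.

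Rps6, whose protein is phosphorylated by the S6 kinases, had 1317 to 1369 FPKM in the 6 day 0 libraries other than the mix 3 and mix 4 vials of replicate 2, 703 and 798 in the other 2 and 822 to 1043 at day 4, with a log2 difference of -0.32 (SE 0.23, limma, adjusted p = 0.371). Rpl4 had -0.69 (SE 0.25, adjusted p = 0.128). Rpl38, linked to selective translation of Hox mRNAs, had 1293 to 2324 at day 0 and 1383 to 1692 at day 4, a difference of -0.42 (SE 0.23, adjusted p = 0.253) that was 0.81 after GC correction. Its rows diverged: NM_023372 had 1130 to 1320 FPKM in day 0 replicate 1, then 853, 410, 2.16 and 5.09 in day 0 replicate 2 and 2.90 to 20.5 at day 4. Rpl38 NM_001048058 had 630, 887, 876 and 841 in day 0 replicate 1, then 1340, 1870, 1290 and 1540 in day 0 replicate 2. Rpl38 NM_001048057 had 254 to 304 FPKM in day 0 replicate 1, 0 in the mix 3 and mix 4 vials of day 0 replicate 2 and 0 to 1.6 at day 4. None of the 3 Rpl38 rows was called with all vials, and NM_023372 and NM_001048057 were called lower without the 2 vials (limma, adjusted p = 0.00596 and 0.00732).

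Rps27 is uncertain. Its protein-coding row NM_027015 was listed at 0 in 13 of 16 libraries and at 101, 31 and 53 in the other 3, while Rps27rt, a near-identical copy whose symbol is outside the rule, had 861 to 2110 FPKM at day 0 and 1640 to 2200 at day 4. Reads of such a pair can be assigned to either copy. In the 13 libraries the gene's value is that of its second row, the non-coding NR_033727, which over all 16 libraries had 0.339 to 8.19 FPKM at day 0 and 0.096 to 1.05 at day 4. The log2 difference of the gene was -3.24 (SE 0.93, limma, adjusted p = 0.0853) and that of NR_033727 alone was -2.61 (SE 0.93, adjusted p = 0.149). Rps4l, with 86.0 to 122 FPKM in day 0 replicate 1 and 3.83 to 10.3 at day 4, had -2.31 (SE 1.28, adjusted p = 0.255). Its only row, NR_003634, is non-coding.

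The spread between vials on the log2 scale placed these differences. Over the 80 genes of at least 1 FPKM, the median SD over 4 vials was 0.04 in day 0 replicate 1, 0.72 in day 0 replicate 2, 0.141 in day 4 replicate 1 and 0.128 in day 4 replicate 2. The median over all 11605 such genes was 0.062, 0.42, 0.092 and 0.089. In 71 of the 80 genes both vials lay below the other 6 day 0 libraries and in 5 both lay above, where 54.5% and 33.2% of all genes did so. In 19 (23.8%) both lay within the day 4 range, as in 11.3% of all genes. In 69 of the 80 the difference between the vial pairs of day 0 replicate 2 was larger than that between the days. The 2 differences that share no library, between those vial pairs and between day 4 and day 0 replicate 1, had a Pearson's r of 0.94 across the 80 genes (0.67 across all 11605). Genes are not independent replicates, and the points share their libraries.

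Both differences followed the GC content of the transcript. Among the 80 genes GC content ran from 40.6% to 60.8% with a median of 50.8%. The coding starts of 4 genes with large differences down (Rpl36 and Rpl8, transcript GC content 60.8% and 58%) or up (Rpl39 and Rpl22l1, 48.7% and 40.6%) are printed with G and C in capitals. Rpl26 and the uncertain Rps27 are not printed. Their log2 differences, -2.62 and -3.24, were further down than the -2.52 of Rpl8, at a GC content of 50.2% and 50.7%, just under the median. Rpl39 lies near the median GC content and above the other ribosomal protein genes of its band; the GENCODE M21 transcripts lie, in GRCm38, at chr17:56613416-56614243 (plus strand, Rpl36), chr15:76904078-76906314 (plus, Rpl8), chrX:37082520-37085402 (minus, Rpl39) and chr3:28805436-28807415 (plus, Rpl22l1).
Rpl36: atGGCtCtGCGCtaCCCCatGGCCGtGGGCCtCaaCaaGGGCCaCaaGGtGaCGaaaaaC
Rpl8: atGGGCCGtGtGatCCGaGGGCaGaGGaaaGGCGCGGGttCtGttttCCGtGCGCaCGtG
Rpl39: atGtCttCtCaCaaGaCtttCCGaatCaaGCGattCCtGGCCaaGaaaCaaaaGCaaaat
Rpl22l1: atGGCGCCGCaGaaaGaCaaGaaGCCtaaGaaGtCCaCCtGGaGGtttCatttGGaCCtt
Of these 60 bases, 36 are G or C in Rpl36, 38 in Rpl8, 24 in Rpl39 and 30 in Rpl22l1, and over the whole coding sequence the share was 61.6%, 58.8%, 45.1% and 39.9%.

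Pearson's r between GC content and the log2 difference, across the 80 genes, was -0.69 for the vial pairs of day 0 replicate 2, -0.71 for day 4 against day 0 replicate 1 and -0.66 for day 4 against day 0. Across all 11449 genes with a sequence it was -0.80, -0.56 and -0.41. With log2 transcript length it was 0.20, 0.24 and 0.26 across the 80 genes. By bands of GC content, the median log2 difference between the days was -0.05 for the 12 ribosomal protein genes under 47%, -0.18 for 18 from 47% to 50%, -0.84 for 23 from 50% to 53%, -1.34 for 13 from 53% to 56% and -1.58 for 14 above that. For other genes in the same bands it was 0.42, 0.06, -0.26, -0.62 and -1.22, lower in the ribosomal protein genes in each band, a difference that was not tested. Without the 2 vials their medians were -0.14, -0.36, -1.10, -1.81 and -1.99, and those of the other genes 0.55, 0.02, -0.41, -0.95 and -1.75.

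**Figure D5:**
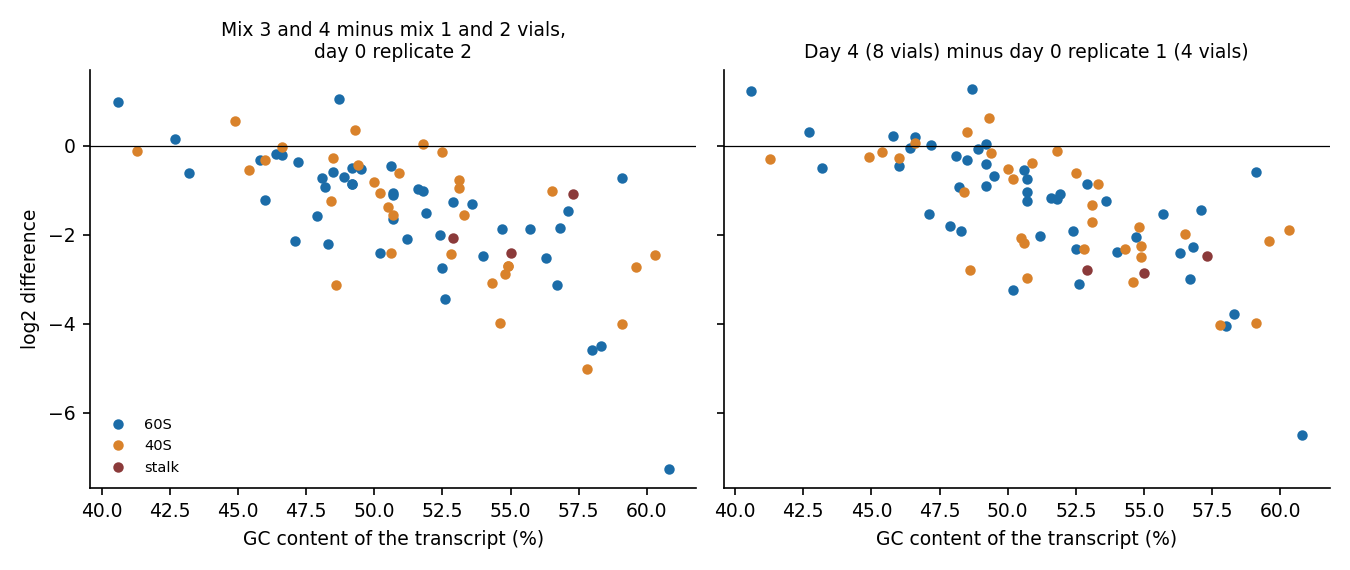
Log2 difference against the GC content of the transcript (%) for the 80 genes, coloured by subunit: left, mix 3 and mix 4 minus mix 1 and mix 2 vials of day 0 replicate 2; right, day 4 minus day 0 replicate 1, which share no library with the left panel. Both fall with GC content (Pearson's r of -0.69 and -0.71), and Rpl36 lies lowest in each.

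After a correction for GC content set on other genes, 65 of 83 genes were lower at day 4 with a median log2 difference of -0.46, and limma called 13 of them lower against 24.5% of all genes. Among genes of at least 1 FPKM it called 12 of 80 lower, against 3551 of all 11449. The uncertain Rps27 was 1 of the 12 (limma, adjusted p = 0.0495). The 13 included Rpl26 (-2.49), Rplp1 (-0.46), Rpl30 (-1.42), Rpl4 (-0.74) and Rps27l (-0.76). Rplp1 lost its call with the correction and without the 2 vials, at -0.25 (SE 0.25, limma, adjusted p = 0.436). The correction together with the block called 42 lower and 2 higher, against 28.1% and 30.3% of all genes. The correction without the 2 vials called 54 lower and 7 higher, with a median of -0.52, against 31.2% and 32.9%. Of the 11449 genes of at least 1 FPKM, 4141 were called lower and 4092 higher with the block. Without the 2 vials it was 4653 lower and 4517 higher. With all vials, 7 of the 83 genes turned from lower to higher with the correction and 3 from higher to lower. Without the 2 vials, Rpl13, Rpl38 and Rps10, 3 genes chosen after their values were seen, went from called lower to called higher with it, Rps10 from -1.63 to 0.46 and Rpl13 from -1.26 to 0.36. Rpl39 stayed high, at 1.15 in that last setting, while Rps2 shrank to -0.42. The correction gave each gene the GC content of its row with the highest mean FPKM. For Rpl38 that was NM_001048058, at 59.1%. In day 0 replicate 1 its highest row was NM_023372, at 53.4%, so the corrected values of Rpl38 depend on the row used. The part of GC content in the difference between the days was not tested.

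Of the start sites, 63 of the 84 genes had a promoter in the RefSeq table (GRCm38.p6, 75 promoters). A C at the annotated start followed by at least 4 bases that are each C or T, read on the strand of the transcript, was found in 14 of the 75 (18.7%) and 2.51% of all 32851 promoters. With any such run overlapping the window from 5 bases before to 10 bases after the start, it was 56% against 29.2%. Windows of 30 bases, 10 before and 20 from the start, are printed for 4 genes with such a C at the start and for Rpl39, whose run ends on the start base; the whole run is in capitals.
Rpl35 (chr2:39005112-39005141, minus strand): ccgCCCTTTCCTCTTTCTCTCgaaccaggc
Rplp2 (chr7:141447641-141447670, plus strand): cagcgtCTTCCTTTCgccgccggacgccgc
Rps6 (chr4:86857348-86857377, minus strand): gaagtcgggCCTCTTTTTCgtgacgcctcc
Rpl38 (chr11:114668570-114668599, plus strand): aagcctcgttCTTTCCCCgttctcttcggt
Rpl39 (chrX:37085203-37085232, minus strand): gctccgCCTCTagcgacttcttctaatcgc
The letters describe annotated starts only, and the log2 differences of these 5 genes ran from -1.94 (Rpl35) to 0.90 (Rpl39).

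The genes around the ribosome were described in the same fit, against the shares given above for all genes. Of 44 ribosome biogenesis factors, all 44 were lower at day 4 with a median log2 difference of -1.35, and limma called 25 lower and 0 higher. With the same total FPKM, the same median FPKM, GC correction or without the 2 vials, 43 were lower and 1 was higher. Rrp12, which acts in export of the subunits, had 4.55 to 34.5 FPKM at day 0 and 1.35 to 1.93 at day 4, with a log2 difference of -3.52 (SE 0.61, limma, adjusted p = 0.0327). Heatr1, needed for transcription and processing of the ribosomal RNA precursor, had 53.5 to 57.0 and 11.2 to 12.1 with -2.22 (SE 0.13, adjusted p = 0.00707). Rrp9 (-3.49, SE 0.98) and Tcof1 (-3.19, SE 0.83) had large differences that were not called, with adjusted p of 0.0812 and 0.0693. Without the 2 vials 42 of the 44 were called lower, with the block 38 and with the mix 4 vials alone 6. Fits without a day 4 replicate have a single RNA sample on that day, so calls there cannot be set against these. The median difference of the list between the vial pairs of day 0 replicate 2 was -0.65, against -1.09 for the 84 ribosomal protein genes, and after GC correction 39 of the 44 were called lower.

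Of 20 translation factors and other genes with TOP mRNAs, 14 were lower, with a median log2 difference of -0.23, and 2 were called lower (Eif3l and Pabpc1), or 11 lower and 2 higher without the 2 vials. Eef2, the elongation factor of translocation, had -1.89 (SE 0.90, limma, adjusted p = 0.202), and Tpt1 0.73 (SE 0.27, adjusted p = 0.133). Among 14 genes that control growth and translation, 3 were called lower (10 lower and 1 higher without the 2 vials): Myc, a driver of ribosome biogenesis, had a median of 30.8 FPKM at day 0 and 1.18 at day 4 (log2 difference -4.27, SE 0.45, limma, adjusted p = 0.014); Larp1, which binds TOP mRNAs, had -2.30 (SE 0.26, adjusted p = 0.0152); and Eif4ebp2 had -1.62 (SE 0.31, adjusted p = 0.0401). The mitochondrial ribosomal proteins, a separate family of 78 genes, had a median of -0.30 with 57 lower, and 1 was called in each direction (10 higher and 40 lower without the 2 vials). Of the 6 genes of ribosomal proteins outside the rule, 0 were called by limma, and 0 had an unadjusted p under 0.05, but 4 were called lower without the 2 vials. Rack1, a 40S scaffold protein, had a log2 difference of -1.10 (SE 0.49, adjusted p = 0.187).

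The labelled days were checked against markers. Of 8 pluripotency markers all 8 were lower at day 4 and 4 were called. Of 8 retinoic acid and neural markers, limma called 3 higher at day 4, among them the retinoic acid target Rarb (log2 difference 8.51, SE 0.17, adjusted p = 0.00699) and the neural factor Pax6 (1.10, SE 0.19, adjusted p = 0.0327), at 0.499 FPKM or less in every library. It called 2 lower, the retinoic acid target Cyp26a1 (-2.50, SE 0.14, adjusted p = 0.0071) and the neuronal tubulin Tubb3 (-3.56, SE 0.66, adjusted p = 0.0366). Hoxb1, Nes and Map2 were not called, at 0.0154, -0.0976 and 0.98. Of 7 endoderm and mesoderm markers 2 were called in each direction.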

How the data were processed

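RNA was rRNA-depleted and sequenced strand-specifically as paired 100-base reads, between 39 and 59 (in units of 1e+06 reads) per sample per the labels. The authors aligned reads with Bowtie2 2.1.0 to RefSeq transcripts of mm10 with the spike-in transcripts, estimated abundances with RSEM 1.2.18 and deposited FPKM multiplied by a TMM factor per library; no counts were used here, so counting error was not computed. TopHat2 2.0.10 is also named in the submitters' processing notes. The 16 columns were read by their titles. The RNA replicate of each library was taken from the study's sample list through the titles.

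Of 33750 rows, 48 spike-in rows were set aside and 1 RefSeq row, a spike-in gene with an error in its concentration, was left out. Rows were named with RefSeq GRCm38.p6 (98.6% matched) and summed per gene. GC content and length came from GENCODE M21 transcripts (97.4% of rows, 83 of the 84 genes). A gene took those of its row with the highest mean FPKM that had a sequence. Vial values were averaged as log2(FPKM + 0.1) per RNA sample and the days compared, 2 against 2, with limma 3.58.1 (R 4.3.3; trend-moderated variances) and p-values adjusted by Benjamini-Hochberg over all 20553 genes above 0 in at least 1 library and a threshold of 0.05. Log2 differences are on that scale and understate changes of low genes. The scripts were tested on simulated data. GC and length corrections used medians in 20 bins of 11369 other genes.

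Replicate numbers mark the repeat of the procedure. Across the 80 genes the replicate differences of the 2 days had a Pearson's r of 0.55 (0.81 across all 11605 genes). Spearman's rho was 0.87 across the 80 genes and 0.89 across all 11605. Named were the 8 genes with the highest and 8 with the lowest difference, 3 with the highest and 3 with the lowest level, 4 with the widest vial spread, 2 lists of paralogs and landmark genes, and the 3 largest differences up and down in companion lists; Heatr1, Eif3l, Pabpc1, Eif4ebp2, Rps2, Rpl30, Rps10, Rpl13, Rps24, Rpl38 rows and the markers were named after their values were seen. The genes and lists were chosen with earlier results of these data known. In all, 18 alternatives were set at the start, and the settings that combine GC correction, block, transcript rows or vials, and those for the Rps24 rows, were added after the data were seen. Promoters came from RefSeq. With 2 RNA samples per day, p-values rest on the spread between them, moderated toward a trend fitted over all genes. With the block they rest on what is left after a shared difference between the repeats. In the fit on 16 libraries the spread between vials enters too.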

Additional observations from a re-analysis of the deposited data

Results flagged for a closer look

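In 5 of 72 groups of 8 libraries (1 gene or row on 1 day), 1 library lay far from the others, and chance alone gives this in about 1 in 20 groups; the libraries of a day are 4 vials of each of 2 RNA samples, not 8 independent samples. Rps27 had 105 FPKM in the mix 1 vial of day 0 replicate 2 and 54.0 FPKM in the mix 3 vial of day 4 replicate 1. Rpl3l had 0.124 FPKM in the mix 1 vial of day 0 replicate 1, and Rpl10l had 0.304 FPKM in the mix 2 vial of day 4 replicate 2. The Rps24 row NM_207635 had 138 FPKM in the mix 3 vial of day 4 replicate 2, still above every day 0 library.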

How the results depend on the processing

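The median log2 difference of the ribosomal protein genes kept its direction in each setting tried, between -1.13 and -0.24. The number of them called, 1 with all vials, was 0 with a pseudocount of 1, with the mix 4 vials only, with only the mix 3 and mix 4 vials of day 0 replicate 2, and without a trend. It was 2 with the same median FPKM, 4 with length correction, 6 with 16 libraries and the RNA sample as a random effect, 13 with GC correction and 61 with that correction without the 2 vials. With the replicate block it was 24, and with GC correction and the block 44. Of all 20553 genes, 5103 were called with the same median FPKM and 7670 with the block. Of the 20046 genes with a GC content, 10453 were called with GC correction. With that correction, 12849 were called without the 2 vials and 11699 with the block. Shares over all genes in the other settings just listed are not given here. Of the 103 transcript rows, 2 (both of Rps24) were called with all vials, 70 without the 2 vials and 9 with the block. Over all 28213 rows the share was 13.9% with all vials, and it is not given here for the other 2 settings. Of all 20553 genes, 12418 were called without the 2 vials. Leaving out the 2 vials gave 58 genes called. Leaving out an RNA sample leaves a single one on that day, so calls there cannot be set against these. The ratio of summed FPKM ran from 1.21 to 1.89 when samples were left out. Among the named genes, with GC correction the log2 difference turned to 0.00397 for Rps19, 0.81 for Rpl38, -0.27 for Rpl5, -0.46 for Rps6kb1 and 0.42 for Fau, with or without the block. With GC correction and without the 2 vials it was 1.18 for Rpl38, -0.0837 for Rpl36a, -0.37 for Rpl5, -0.0919 for Rpl7, -0.26 for Hnrnpa1, -0.51 for Rps6kb1, 0.48 for Fau and -0.29 for Rps27rt. Without the 2 vials Rps27rt was at -0.0468, and Rpl10l was at -0.25 with the mix 4 vials only and at -0.00216 with only the 2 vials. With an RNA sample left out, Rpl11 ran from -0.87 to 0.0187, Rpl10l from -0.0886 to 0.27 and Rps27rt from -0.0468, without the 2 vials, to 0.50, with -0.0263 without day 0 replicate 2. The cause was not tested. The number of reads behind a single FPKM was not computed, so low values such as those of Rpl3l carry no stated precision.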
